A study of Mus musculus with 13 samples.

Results

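Mesenchymal cells of the limb bud gather into tight condensations before they become cartilage, and 7 cell adhesion genes were followed here through that step in limb buds with and without Sox9, the transcription factor gene that cartilage formation depends on. They are the cadherin genes Cdh2, Cdh11 and Cdh22, the immunoglobulin-family adhesion gene Ncam1, the matrix genes Fn1 and Tnc, and the integrin gene Itga5. They were chosen by name: 6 as adhesion genes tied to condensation, and Cdh22 because it was among the genes called higher in E12.5 Sox9-deficient limb buds. All 7 were found among the 12880 genes of the deposited table. The difference that chose Cdh22 is therefore given as a description, with no test.

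RNA-seq had been done on 13 mouse limb bud libraries in 4 groups, each library from 1 embryo per the file headers. At embryonic day E11.5 there were 3 controls, given as Sox9fl/-, and 4 mutants, given as Sox9-/- and called Sox9null. At E12.5 there were 3 Sox9fl/fl controls and 3 Sox9fl/flPrx1CreER mutants, called Sox9cKO. The E11.5 controls thus carried 1 null allele already, so comparisons between the ages also set different genotypes against each other, and in Sox9cKO recombination rests on CreER, a Cre that tamoxifen switches on, under a Prx1 limb mesenchyme driver, so cells outside that lineage keep Sox9. The treatment with tamoxifen, the cells in which the E11.5 null alleles were made, and whether forelimbs, hindlimbs or both were taken were not stated in the labels or headers.

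Cadherins join like cells to like cells through extracellular repeats, and their tails bind catenins, which reach the actin cytoskeleton. N-cadherin (Cdh2) and NCAM (Ncam1) are the classical adhesion molecules of limb condensations, and NCAM is made less adhesive by polysialic acid, which the enzymes of St8sia2 and St8sia4 add. Fibronectin (Fn1) builds up in the matrix of condensing mesenchyme and is bound by integrins, chiefly α5β1 (Itga5 with Itgb1), while tenascin-C (Tnc) is a matrix glycoprotein of condensations, perichondrium and tendon. Cadherin-11 (Cdh11) is a cadherin of mesenchyme, and Cdh22 encodes a cadherin known mainly from brain and pituitary.

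Levels are in normalized RPKM, reads scaled by gene length and library depth, so they can be compared between genes. Differences are in log2(RPKM + 1) from limma over all genes and libraries, and a gene was called at a Benjamini-Hochberg adjusted p below 0.05. This scale understates changes of low genes such as Cdh22 and Tnc. By their mean over the 13 libraries the 7 genes ran from Cdh11 (66.7 RPKM) and Fn1 (55.6) through Ncam1 (27.9), Itga5 (19.9), Cdh2 (14.9) and Tnc (11.3) to Cdh22 (5.61). From the lowest library to the highest, Cdh11 spanned 1.26-fold, Cdh2 1.40-fold, Itga5 1.46-fold, Ncam1 1.58-fold, Fn1 1.96-fold, Cdh22 2.88-fold and Tnc 8.67-fold. The 2 genes of lowest mean level were therefore the 2 that varied most.

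**Figure D1:**
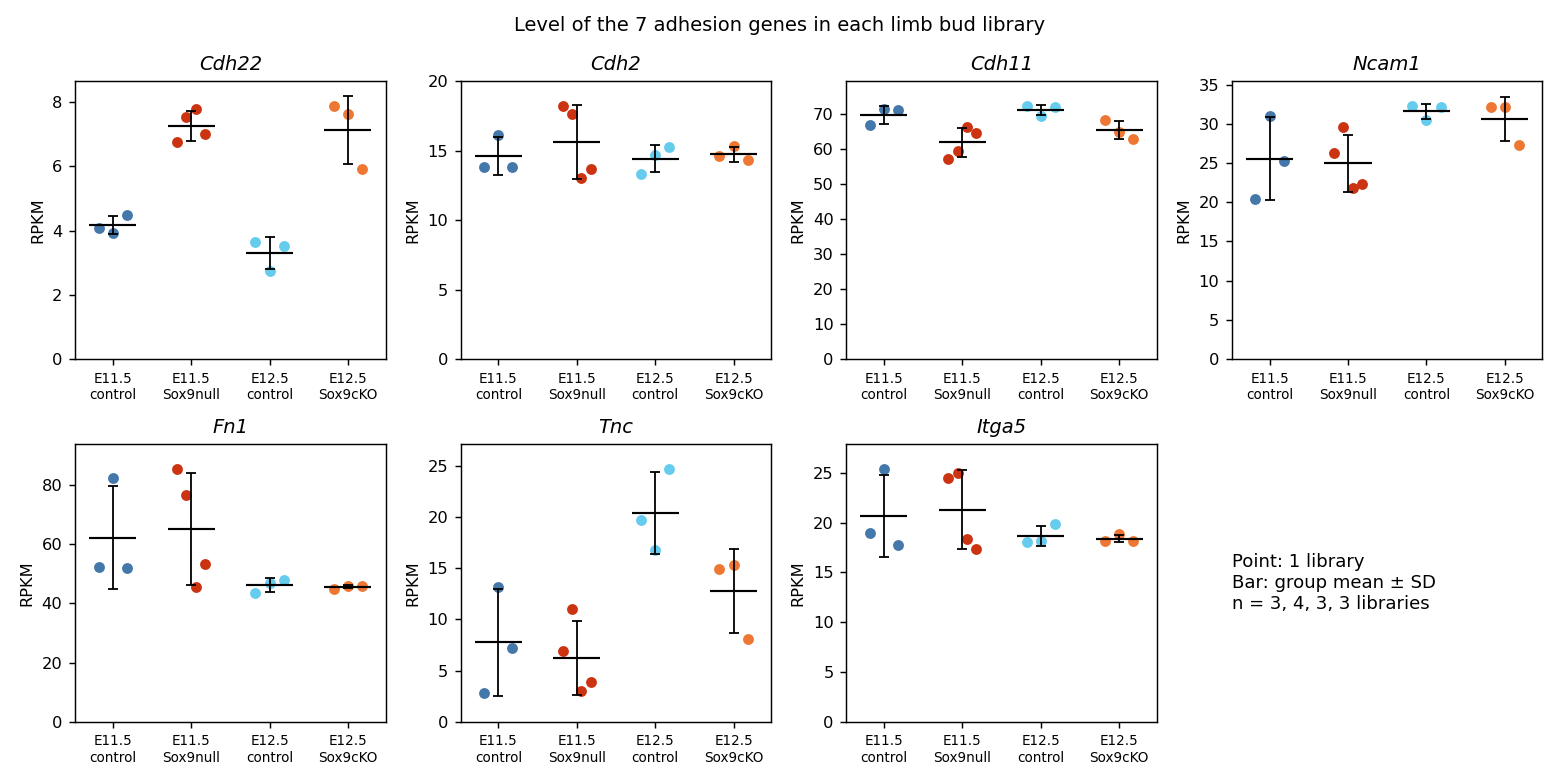
Normalized RPKM (vertical axes, each from 0) of the 7 genes in each library, by group (horizontal axes), with the group mean and SD. Cdh22 is the gene whose mutant libraries all lie above the control libraries at both ages, from 6.78 against at most 4.48 RPKM at E11.5, and Tnc is highest in the E12.5 controls.

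Some facts of the libraries touch these genes. Sox9 itself was at 35.8, 49.3 and 37.1 RPKM in the E11.5 controls, and Sox9null had 20.6, 25.7, 25.0 and 22.7, lower by a log2 difference of -0.76 (limma adjusted p = 0.036, SE 0.111). That call held in 8 of 18 alternatives, with adjusted p from 0.0128 to 0.523. At E12.5 the controls had 37.5, 35.2 and 35.9 and Sox9cKO had 35.1, 28.7 and 32.2, a log2 difference of -0.18 that was not called (adjusted p = 1.0). The labels do not say which exons the alleles lack, so a level over the whole gene is a limited check of the labels. At E11.5 the libraries formed a set of 3 (control 2, Sox9null 1 and 2) and a set of 4 (controls 1 and 3, Sox9null 3 and 4), with correlations of 0.979 to 0.989 within the sets and 0.938 to 0.966 between them. Y-linked genes were on in all 3 E12.5 controls but only in replicate 3 of Sox9cKO, and at E11.5 in control 1 and Sox9null 3, so sex and genotype are largely confounded at E12.5. All 10 limb mesenchyme markers were listed, with a summed level of 376.6 to 408.8 RPKM in E11.5 controls and 339.5 to 346.9 in E12.5 controls. The 10 cartilage markers listed summed to 140.0 to 190.7 RPKM in E11.5 controls against 91.6 to 112.5 in Sox9null, and to 252.6 to 327.4 in E12.5 controls against 143.5 to 190.6 in Sox9cKO.

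Cdh22 (ENSMUSG00000053166, chr2:165111507-165234853 on the minus strand, GRCm38) was the member that stood apart. The E11.5 controls had 4.09, 3.93 and 4.48 RPKM of it, and the 4 Sox9null libraries had 6.78, 7.54, 7.78 and 7.00. Every Sox9null library was above every control, which held for 1.41% of all genes, with means of 7.27 ± 0.467 (SD, n = 4) and 4.17 ± 0.283 (SD, n = 3), a ratio of 1.75. In limb tissue sequenced whole, more cells that express a gene and more RNA per cell cannot be told apart.

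Cdh22 was chosen by its difference between the E12.5 groups, with earlier results of these data known. The E11.5 difference was therefore the one tested. It was 0.68 on the log2 scale (SE 0.107, 95% confidence interval 0.45 to 0.91) with an unadjusted limma p of 3.87e-05. Over all 12880 genes the adjusted p was 0.0554, just past the threshold, so Cdh22 was not called. That fit takes the spread of each gene from all 13 libraries, including the E12.5 libraries that chose Cdh22. In a limma fit of the E11.5 libraries alone the adjusted p was 0.194. In the main fit Cdh22 had the smallest p of the 7313 genes with a difference above 0, and the ninth-smallest of all. There were 22 genes with larger rises, 8 of them without overlap between the groups. An exact permutation test (two-sided) gave p = 0.0571, which is as low as the 35 splits of 4 against 3 libraries can go.

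The size of the E11.5 difference moved little: it was 0.67 within the set of 4 libraries and 0.72 within the set of 3, and 0.65 to 0.72 with any 1 library left out. Its adjusted p ranged from 0.0162 to 0.348 over 18 alternative settings, and it was below the threshold in 4 of them. None of the 7 genes was called at E11.5, where 0.0543% of all genes were called (7 genes, all lower). At an unadjusted p below 0.05 there were 2 members, Cdh22 and Cdh11, and 363 genes in all.

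At E12.5, in the comparison that chose it, Cdh22 was at 3.65, 2.73 and 3.51 RPKM in controls and 7.88, 7.63 and 5.91 in Sox9cKO. The groups again did not overlap, as was so for 1483 of all 12880 genes in that direction. The means were 3.30 ± 0.494 and 7.14 ± 1.07 RPKM (SD, n = 3 each), a ratio of 2.17 and a log2 difference of 0.92. Without overlap in both mutants there were 36 genes that were higher, 19.9% of the 181 at E11.5 and 2.43% of the 1483 at E12.5. The share to set beside 19.9% is the 1483 of all 12880 genes. Cdh22 was among the 36. It was chosen for its E12.5 rise, so its place there adds nothing to the E11.5 result. The 2 genotype comparisons share no library, yet for Cdh22 the E12.5 one is no independent repeat.

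Between the ages every E12.5 control was below every E11.5 control in Cdh22 (at most 3.65 against at least 3.93 RPKM), as for 13.3% of all genes. The control mean went from 4.17 to 3.30 RPKM, a log2 difference of -0.27 (95% confidence interval -0.52 to -0.02) that was -0.17 without E12.5 control 2 and -0.51 with quantile normalization. The mutants overlapped, with means of 7.27 and 7.14 RPKM (-0.03). These values use the libraries that chose the gene and so carry no test. Of the 10 cadherin genes listed, only Cdh4 had a lower mean level than Cdh22 in E11.5 controls, at 3.28 RPKM, and none had in E12.5 controls. In Sox9null Cdh22 (7.27) lay under Cdh6 (7.74) by less than its SD of 0.467, and in Sox9cKO (7.14) it lay between Cdh1 (9.55) and Cdh4 (5.44).

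The sequence before the Cdh22 start site is shown with that of Tnc, as these are the members with the widest range of levels. Of the 7 genes, 3 (Cdh22, Tnc and Itga5) have an entry in the RefSeq promoter table used (GRCm38.p6). Printed are bases upstream of every annotated transcript of the gene, 5′ to 3′ on the minus strand, chr2:165234854-165234987 for Cdh22 and chr4:64047016-64047265 for Tnc, with GC boxes (GGGCGG, either strand) in capitals.
Cdh22: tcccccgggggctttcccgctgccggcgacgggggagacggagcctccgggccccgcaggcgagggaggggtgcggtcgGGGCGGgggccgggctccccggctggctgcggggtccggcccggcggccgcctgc
Tnc: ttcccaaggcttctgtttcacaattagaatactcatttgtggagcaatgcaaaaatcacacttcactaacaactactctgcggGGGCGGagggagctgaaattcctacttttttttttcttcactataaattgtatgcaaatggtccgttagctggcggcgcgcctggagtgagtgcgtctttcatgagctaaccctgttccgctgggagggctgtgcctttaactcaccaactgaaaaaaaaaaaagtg
The windows of 250 bases differ in composition: 77.6% of that of Cdh22 is G or C (85.1% of the 134 bases printed), against 44.8% of the Tnc window printed. A further Tnc window, which overlaps it, has 51.2%. The median was 52.4% (quartiles 45.2% and 61.2%) over all 32851 promoters of 250 bases. Each of these windows holds 1 GC box, within the bases printed, and 32.7% of all such promoters hold at least 1. In the full windows of 250 bases of Cdh22, Tnc and Itga5, none held the SOX core letters AACAAT (9.42% of all promoters do, either strand) or the CACCTG letters that SNAIL and ZEB repressors of cadherins read (17.2%). The 3 patterns share no letters in these stretches, and a match or its absence in such windows describes the letters alone.

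Markers of other cell types were set beside Cdh22, and several lists moved with it at E12.5. The erythroid list, 9 of 10 genes listed, summed to 658.7 to 703.9 RPKM in E11.5 controls and 657.6 to 1117 in Sox9null, and to 523.3 to 548.0 in E12.5 controls and 703.0 to 876.2 in Sox9cKO. Most of that sum is globin. The 7 other red-cell genes (Rhag, Epb4.2, Slc4a1, Gata1, Hemgn, Klf1 and Alas2), a division made after the values were seen, summed to 70.2, 84.7 and 69.2 RPKM in E11.5 controls and 88.0, 90.7, 102.9 and 108.1 in Sox9null. In E12.5 controls they summed to 61.5, 75.2 and 68.1 RPKM and in Sox9cKO to 113.2, 97.6 and 107.0. Like Cdh22, this sum was higher in every mutant library than in every control of its age. Within groups the order differed. The control with the highest sum had the lowest Cdh22 at E11.5 (84.7 and 3.93 RPKM) and at E12.5 (75.2 and 2.73). Sox9null 4 had the highest sum of its group (108.1) with Cdh22 at 7.00, while Sox9cKO 1 was highest of its group in both (113.2 and 7.88). The part of this sum in the Cdh22 difference was not tested. All 9 endothelial markers had a difference above 0 in both genotype comparisons, and none was called. Their sum was 111.2 to 126.0 RPKM in E11.5 controls and 120.6 to 145.1 in Sox9null, and 133.3 to 142.3 in E12.5 controls and 143.0 to 153.5 in Sox9cKO. Limb mesenchyme markers summed to 370.4 to 408.4 RPKM in Sox9null, within the range of the controls, and to 349.9 to 363.0 in Sox9cKO, above the 339.5 to 346.9 of the controls. The sum of 10 surface ectoderm markers was lower in Sox9cKO, at 144.2 to 163.3 RPKM against 164.7 to 172.7, though 3 of them had a difference above 0. At E11.5 all 10 had a difference above 0 in Sox9null, and the sums overlapped, at 139.9 to 185.8 RPKM against 129.0 to 155.1 in controls. None of them was called by genotype at either age. The muscle, nerve and leukocyte sums overlapped between genotypes at both ages. The part of these lists in the Cdh22 difference was not tested either. The sum of cartilage markers moved the other way from Cdh22, lower in every mutant library than in every control of its age, as given above. Of the 10 markers, 1 (Hapln1, 0.25) had a difference above 0 at E11.5 and 0 had at E12.5. At E11.5 2 were called lower and at E12.5 3, where 0.0543% and 0.14% of all genes were. No listed erythroid or cartilage marker was at 0 throughout a group.

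**Figure D2:**
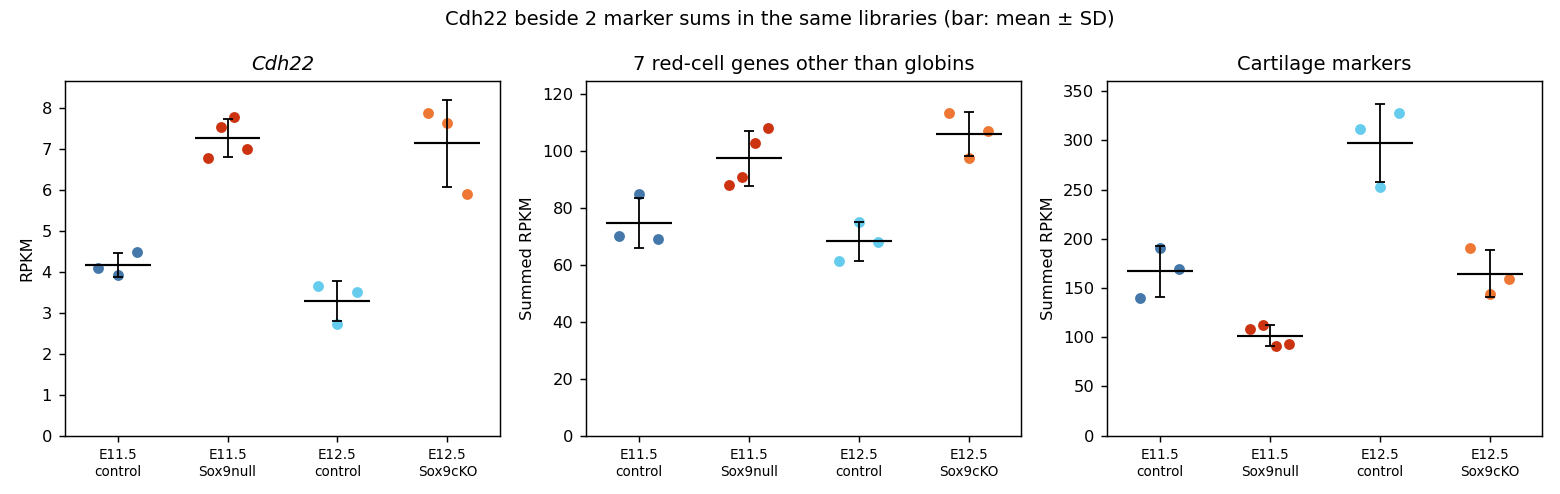
RPKM of Cdh22, summed RPKM of 7 red-cell genes other than globins and summed RPKM of cartilage markers (vertical axes from 0) in each library by group, with mean and SD. Cdh22 and the red-cell sum are higher in all mutant libraries than in the controls of the same age (E12.5 Cdh22 5.91 to 7.88 against 2.73 to 3.65 RPKM), and the cartilage sum is lower.

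The genes whose pattern over the 13 libraries was most like that of Cdh22 were red-cell genes too. Likeness was the root mean square difference of centred log2 values, on which scale Cdh22 itself varied by 0.426 about its mean. Ermap, an erythroid membrane protein gene, came first (0.234), before Rhag (0.247), Spnb1 (0.249), Ank1 (0.262) and Epb4.9 (0.264), which encode proteins of the red-cell membrane and its skeleton. The mutant-to-control ratio of means was 1.39 for Ermap, 1.40 for Rhag, 1.30 for Spnb1, 1.33 for Ank1 and 1.23 for Epb4.9 at E11.5, against 1.75 for Cdh22. At E12.5 it was 1.61, 1.95, 1.82, 1.53 and 1.48 in the same order, against 2.17. The 5 genes were chosen for likeness to Cdh22 in these same libraries, so their ratios are a description.

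No gene measured around Cdh22 had a difference as large. Of the 13 other protein-coding genes within 250000 bases, 7 were listed (Pcif1, Zfp335, Ncoa5, Cd40, Slc35c2, Elmo2 and Zfp334). Their log2 differences ran from -0.05 to 0.20 at E11.5 and from -0.09 to 0.05 at E12.5. None was called (limma), where 0.0543% of all genes were called at E11.5 and 0.194% at E12.5. This neighbourhood was looked at after the Cdh22 values were seen. Cdh22 was chosen for a large E12.5 difference, so smaller differences of its neighbours at that age carry little meaning.

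**Figure D3:**
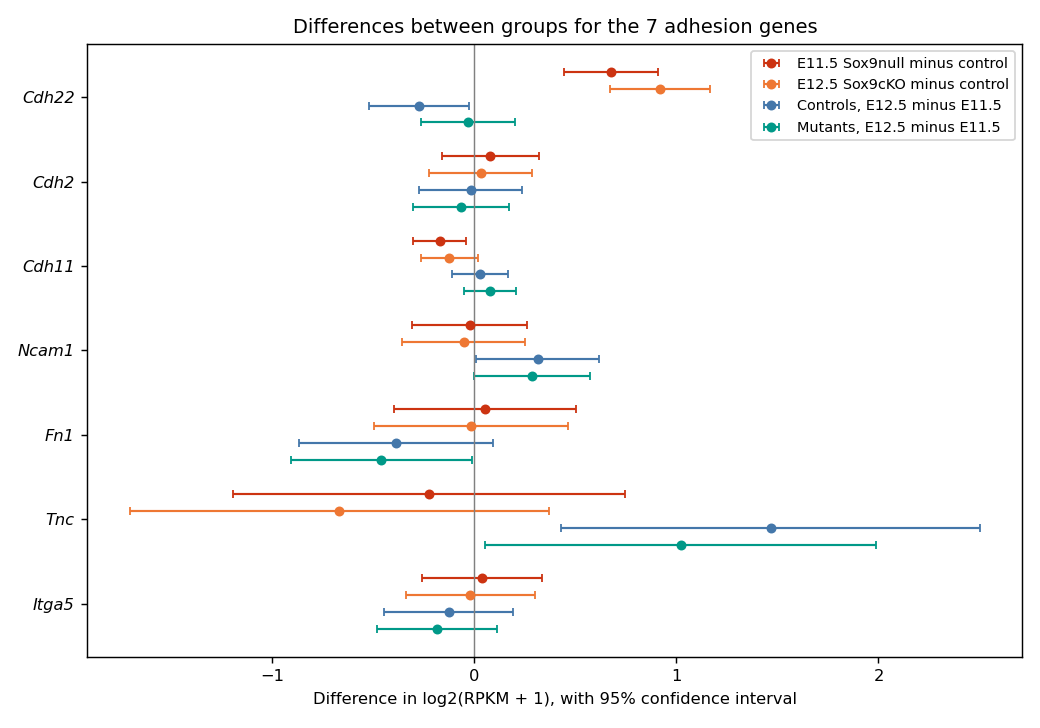
Differences in log2(RPKM + 1) with 95% confidence intervals (horizontal axis) for the 7 genes in 4 comparisons, in colours named in the legend. Cdh22 is high in both genotype comparisons (0.68 and 0.92) and near 0 or below in the stage comparisons, and Tnc has the widest intervals and its highest value with stage in controls (1.47). Intervals of the E12.5 genotype comparison, and those of Cdh22 with stage, are descriptions and no test.

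Cdh11 (ENSMUSG00000031673, chr8:102632095-102785642, minus strand) went the other way from Cdh22 by a small amount. It was at 66.8, 71.5 and 71.0 RPKM in E11.5 controls and 57.3, 59.5, 66.2 and 64.7 in Sox9null. The Sox9null libraries were all lower, as were those of 1.06% of all genes. The log2 difference was -0.17 (95% confidence interval -0.30 to -0.04) with an unadjusted limma p of 0.0144 and an adjusted p of 1.0. At E12.5 it was at 72.2, 69.5 and 71.9 RPKM in controls and 68.1, 64.9 and 63.0 in Sox9cKO, with no overlap and a log2 difference of -0.12 (8.5% of all genes were lower without overlap there). Neither stage difference was called (0.03 in controls and 0.08 in mutants).

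Cdh2 (ENSMUSG00000024304, chr18:16588877-16809246, minus strand) had similar levels in the 4 groups. It was at 13.8, 16.2 and 13.9 RPKM in E11.5 controls, 18.2, 17.6, 13.0 and 13.7 in Sox9null, 13.3, 14.7 and 15.2 in E12.5 controls and 14.6, 15.4 and 14.3 in Sox9cKO. The groups overlapped at both ages. The E11.5 genotype difference was 0.08 (95% confidence interval -0.16 to 0.32, limma adjusted p = 1.0), so a rise or fall as large as that of Cdh22 lies outside its interval. Its stage differences were -0.02 in controls and -0.06 in mutants. The genes most like Cdh2 over the libraries were Cachd1 and Lphn2, and those most like Cdh11 were Lmo4 and Vgll4.

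The catenins that cadherin tails bind showed no genotype call either. β-catenin (Ctnnb1), also the effector of WNT signalling, was at 117.4 ± 13.5 RPKM in E11.5 controls and 111.6 ± 13.9 in Sox9null (SD, n = 3 and 4), then at 88.5 ± 1.42 in E12.5 controls and 88.9 ± 0.745 in Sox9cKO (SD, n = 3 each). It fell with stage, by 0.40 on the log2 scale in controls (limma adjusted p = 0.0208) and by 0.32 in mutants (0.0434). α-catenin (Ctnna1), which links the complex to actin, fell too, by 0.29 and 0.19 (0.00569 and 0.0338). p120-catenin (Ctnnd1), which holds cadherins at the membrane, was not called, at -0.10 and -0.09.

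Ncam1 (ENSMUSG00000039542, chr9:49502136-49798925, minus strand) was at 20.4, 31.0 and 25.3 RPKM in E11.5 controls and 26.3, 29.5, 21.8 and 22.4 in Sox9null. At E12.5 it was at 32.2, 30.5 and 32.1 in controls and 32.2, 32.2 and 27.3 in Sox9cKO. Genotype groups overlapped at both ages, and the E11.5 difference was -0.02 (95% confidence interval -0.31 to 0.26). The E12.5 controls were at or above 30.5 while 1 of 3 E11.5 controls was, and the stage difference of 0.32 was not called (limma adjusted p = 0.125), nor was that of 0.29 in mutants (0.136). In a fit with the E11.5 library set as a term both were called, at 0.44 (adjusted p = 0.0017) and 0.47 (0.00154). That term, in every stage comparison here, codes the E12.5 libraries with the set of 4, which nothing in the labels gives. Its stage differences are therefore in effect taken from the level of the set of 4. Ncam1 was higher in the set of 3, by 0.35 on the log2 scale. Leaving out E11.5 control 2 alone gave 0.46 in controls (0.0334). Of the enzymes that put polysialic acid on NCAM, St8sia4 rose with stage, by 0.38 in controls (adjusted p = 0.0477) and 0.51 in mutants (0.0138). St8sia2 was not called, at -0.38 and -0.36. The genes most like Ncam1 over the libraries were Rbms3 and Rusc2.

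Tnc (ENSMUSG00000028364, chr4:63959785-64047015, minus strand) was the one member called with stage, in the controls. E11.5 controls had 2.85, 13.2 and 7.20 RPKM, and E12.5 controls had 19.7, 16.8 and 24.7, all above them, as for 32.6% of all genes. The log2 difference was 1.47 (SE 0.474, 95% confidence interval 0.43 to 2.50, limma adjusted p = 0.0462), a ratio of means of 2.63. In the controls 21.7% of all genes were called, 16.5% higher, so 1 of the 6 members tested is no larger a share than the background. The exact permutation p was 0.1, the smallest that 3 against 3 allow.

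The Tnc call was a narrow one. It held in 9 of 17 alternatives, with adjusted p from 0.00108 to 0.159. It was lost when E11.5 control 1 (log2 difference 0.97, adjusted p = 0.159) or 3 (1.52, 0.0785) was left out. Leaving out E12.5 control 1 (1.48, 0.115), 2 (1.59, 0.0758) or 3 (1.33, 0.133) also ended it. Without E11.5 control 2, the library of the set of 3, the difference was 1.91 (adjusted p = 0.0177).

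In the mutants Tnc went from 6.91, 11.0, 2.97 and 3.91 RPKM in Sox9null to 14.9, 15.3 and 8.08 in Sox9cKO. Sox9cKO 3 lay within the Sox9null range. The log2 difference of 1.02 (95% confidence interval 0.05 to 1.99) was not called (adjusted p = 0.12, background 19.7% called), whereas a term for the library set gave 1.63 (adjusted p = 0.00307). Whether the rise differed between controls and mutants was not tested. At E12.5 every Sox9cKO library was below every control, as for 8.5% of all genes. The log2 difference was -0.67, a description. It was -0.39 without Sox9cKO 3 and -1.39 with sex as a term. At E11.5 the genotype groups overlapped (-0.22, 95% confidence interval -1.19 to 0.75), an interval too wide to bound the gene. The genes most like Tnc over the libraries were Adamtsl1 and Ogn, which encode an ADAMTS-like matrix protein and the small proteoglycan osteoglycin. Muscle markers moved with it in Sox9cKO 3, which had a summed level of 119.0 RPKM against 151.6 and 171.2 in the other Sox9cKO libraries. The leukocyte (33.96), nerve (77.45), surface ectoderm (144.2) and limb mesenchyme (349.9) sums were also lowest of the group in Sox9cKO 3. Its cartilage, endothelial and erythroid sums were not. The part of these lists in the Tnc level was not tested.

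Fn1 (ENSMUSG00000026193, chr1:71585520-71653200, minus strand) was at 52.4, 82.3 and 51.9 RPKM in E11.5 controls and 85.5, 76.5, 45.4 and 53.3 in Sox9null. At E12.5 all 6 libraries lay close together, at 43.7, 46.9 and 48.1 in controls and 45.0, 46.0 and 46.0 in Sox9cKO. The E11.5 genotype difference was 0.05 (95% confidence interval -0.39 to 0.50). Every E12.5 control was below every E11.5 control, as for 13.3% of all genes, yet the stage difference of -0.39 was not called (limma adjusted p = 0.224), nor was that of -0.46 in mutants (0.13). With the library set as a term the control difference was -0.16 and was called (adjusted p = 0.0464), smaller in size than without it. Leaving out Sox9null 3 gave -0.61 in mutants (0.0381).

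Itga5 (ENSMUSG00000000555, chr15:103344286-103366763, minus strand), the fibronectin receptor subunit, was highest in the same 3 E11.5 libraries as Fn1. Controls had 18.9, 25.4 and 17.8 RPKM of it, and Sox9null had 24.4, 25.0, 18.4 and 17.4. At E12.5 it was at 18.1, 18.1 and 19.8 in controls and 18.2, 18.8 and 18.2 in Sox9cKO. No comparison was called: the E11.5 genotype difference was 0.04 (95% confidence interval -0.26 to 0.34), and the stage differences were -0.13 and -0.18. Acvr1 and Pcnxl3 were most like it, and Auts2 and Prrc2c most like Fn1.

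Other integrin genes of the fibronectin and tenascin receptors gave no genotype call. Itgb1, the common β1 partner, was at 59.5 ± 2.70 RPKM in E11.5 controls and 58.0 ± 3.61 in Sox9null (SD, n = 3 and 4), and its stage differences of -0.10 and -0.04 were not called. Itgav and Itga4 had stage differences of -0.11 and -0.03, and of 0.16 and 0.07, without a call. Itga8, which pairs with β1 to bind fibronectin and tenascin-C, rose by 0.40 in both controls and mutants (limma adjusted p = 0.00711 and 0.00815). Itga9, a tenascin receptor subunit, rose by 0.23 and 0.18 (0.0141 and 0.039). Sdc4, a syndecan that helps cells hold fibronectin, rose by 0.51 in controls (0.0189), and its 0.38 in mutants was not called (0.0524).

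Of the 7 genes, 4 separated the E11.5 libraries by set, with control and Sox9null libraries on the same side. Fn1 was at 76.5 to 85.5 RPKM in the set of 3 and 45.4 to 53.3 in the set of 4, Itga5 at 24.4 to 25.4 and 17.4 to 18.9, Ncam1 at 26.3 to 31.0 and 20.4 to 25.3, and Cdh2 at 16.2 to 18.2 and 13.0 to 13.9. The sets did not overlap for these 4, where 16.3% of all genes were higher and 41.0% lower in the set of 3 without overlap. Since the sets were found from the values of all genes, this is a description. For Cdh22, Cdh11 and Tnc the sets overlapped. What the sets are is not given in the labels.

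**Figure D4:**
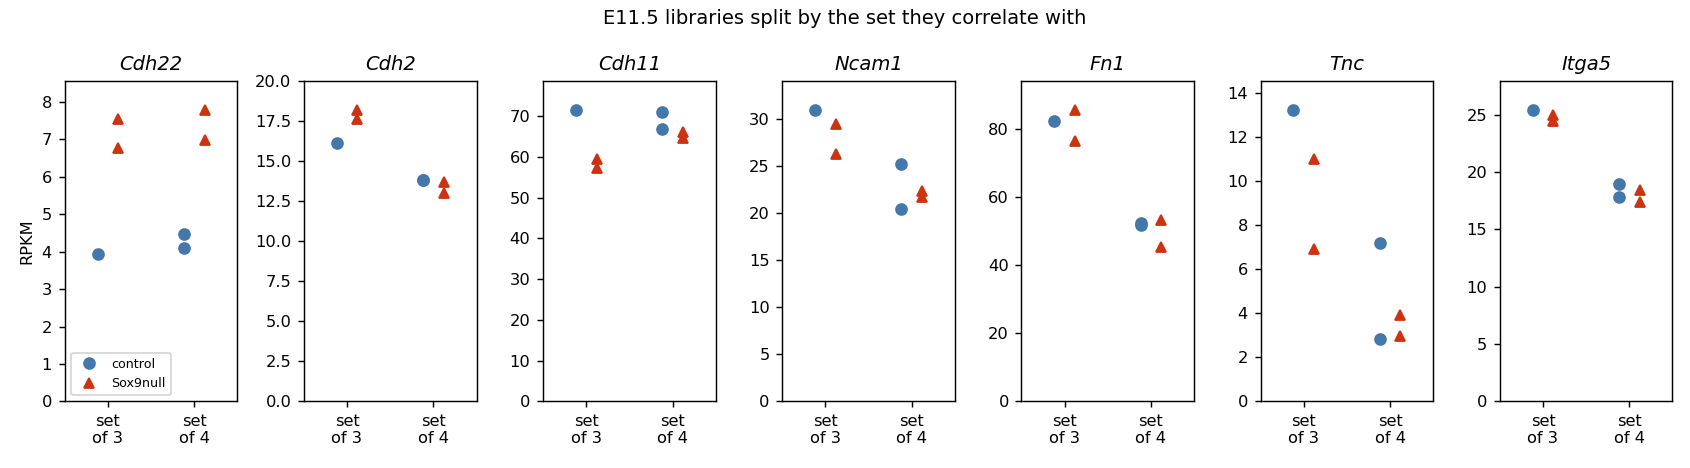
RPKM (vertical axes from 0) of the 7 genes in the 7 E11.5 libraries, split into the set of 3 and the set of 4, with circles for controls and triangles for Sox9null. Fn1 is at 76.5 to 85.5 RPKM in the set of 3 and 45.4 to 53.3 in the set of 4 whatever the genotype, while Cdh22 separates by genotype in both sets.

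Other adhesion genes were described from 7 lists of 115 genes, 80 of which were listed in the table. In the genotype comparisons none of the 80 was called with limma at E11.5 (3 at an unadjusted p below 0.05), and none at E12.5 (2 unadjusted), where 0.194% of all genes were called. The median difference was -0.0012 at E11.5 and -0.03 at E12.5, against 0.01 for all genes in each. With stage, 18 rose and 7 fell in controls (31.2%) and 18 rose and 6 fell in mutants (30.0%), beside 21.7% and 19.7% of all genes (5.19% and 5.23% fell). The medians were 0.05 and 0.04, against 0.06 for all genes in each. The control and mutant comparisons share no library. Leaving out E11.5 control 1 or E12.5 control 3 left 16 calls in controls, and leaving out Sox9cKO 1 or 2 left 8 or 6 in mutants, while a term for the library set gave 41 and 40. With each library centred on its median the calls were 14 higher of 27 in controls and 11 higher of 21 in mutants.

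Among the 7 other cadherins listed, 2 rose and 1 fell with stage in controls and the same numbers in mutants. Of all genes 21.7% were called in controls and 19.7% in mutants, and no single list was tested against those shares. Cdh4 (R-cadherin) rose from 3.28 ± 0.803 to 7.87 ± 1.13 RPKM in controls (SD, n = 3 each), by 1.06 on the log2 scale (limma adjusted p = 0.00209), and by 0.66 in mutants (0.0185). Cdh15, the M-cadherin of muscle precursors, rose by 0.73 and 0.55 (0.00183 and 0.00801). The muscle marker sum rose beside it, from 51.8 to 82.0 RPKM in E11.5 controls to 163.9 to 197.7 at E12.5, and its part was not tested. Cdh24 fell by 0.16 in both (0.0495 and 0.0375). In mutants 1 further catenin-list gene, Pkp4, rose by 0.14 (0.043), beside the falls of Ctnnb1 and Ctnna1, so 2 of 8 in controls and 3 of 8 in mutants were called.

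Of 12 immunoglobulin-family and polysialylation genes, 6 rose in controls and 4 in mutants, and none fell. Alcam, an adhesion molecule of many embryonic tissues, rose from 12.6 ± 1.67 to 24.0 ± 2.44 RPKM in controls (SD, n = 3 each; log2 difference 0.88, limma adjusted p = 0.00162) and by 0.66 in mutants (0.00756). Igsf11 rose by 0.87 and 0.98 (0.0129 and 0.00801), Icam1 by 0.57 in controls (0.0111), and Mcam by 0.43 in controls and 0.28 in mutants (0.00257 and 0.0174). The list's medians were 0.20 and 0.12. Of 15 other integrins 3 rose in each, Itga8, Itga9 and Itga6 (0.20 and 0.18), and none fell. None of 12 focal adhesion genes was called with limma in either (0 and 2 at an unadjusted p below 0.05), and their medians were -0.02 and -0.03. Over all genes 21.7% were called in controls and 19.7% in mutants, and these small lists were not tested against those shares.

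Among 13 matrix glycoproteins 4 rose and 2 fell in controls, and 5 rose and 1 fell in mutants. The share of all genes called was 21.7% in controls and 19.7% in mutants. Postn, which encodes periostin of perichondrium and tendon, rose from 4.44 ± 0.514 to 12.51 ± 1.72 RPKM in controls (SD, n = 3 each), by 1.31 on the log2 scale (limma adjusted p = 0.00634), and by 1.12 in mutants (0.0129). Thbs2 rose by 1.18 in controls (0.00184) and Thbs1 by 0.61 in controls and 0.52 in mutants (0.00662 and 0.0135). Spp1, the osteopontin gene, was called in mutants (0.75, adjusted p = 0.0182), where its control difference was 0.15. Fbln1 fell by 0.29 in controls (0.00208) and Emilin1 by 0.18 and 0.19 (0.0213 and 0.0183).

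The 13 genes of hyaluronan, syndecans and glypicans went both ways, with 3 rises and 2 falls in each comparison. Beside them, 21.7% of all genes were called in controls and 19.7% in mutants. Has2, the main hyaluronan synthase of limb mesenchyme, rose from 21.7 ± 2.58 to 30.7 ± 1.60 RPKM in controls (SD, n = 3 each), by 0.49 on the log2 scale (limma adjusted p = 0.003), and by 0.41 in mutants (0.00764). Sdc2 rose by 0.31 and 0.23 (0.00881 and 0.0318), and Cd44, a hyaluronan receptor gene, by 0.30 in mutants (0.0362). Gpc3 fell from 114.0 ± 9.66 to 85.5 ± 2.59 RPKM in controls (SD, n = 3 each), by 0.41 (0.00441), and by 0.39 in mutants (0.00669). Gpc1 fell by 0.21 and 0.18 (0.0149 and 0.0279). The list's medians were -0.10 and -0.16.

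**Figure D5:**
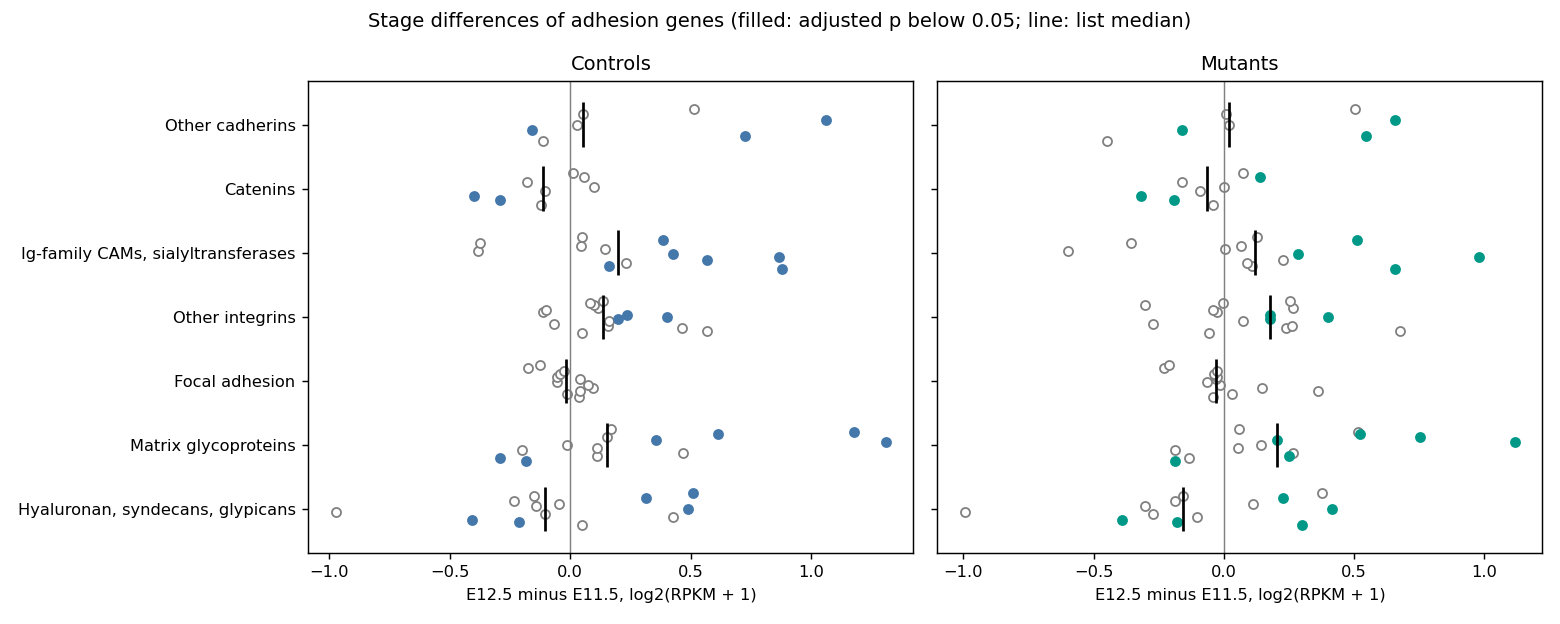
Stage differences (E12.5 minus E11.5, log2(RPKM + 1), horizontal axes) of 80 adhesion genes by list, in controls (left) and mutants (right), with filled points for genes called and a line at each list's median. Rises outnumber falls among the called genes (18 and 7 in controls, 18 and 6 in mutants). The same holds over all genes, with 16.5% called higher and 5.19% lower in controls, and 14.5% and 5.23% in mutants. Postn reaches 1.31 in controls, and no focal adhesion gene is filled.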

How the data were processed

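The values come from 1 deposited table. They are normalized RPKM per gene and library, made by the authors per the file headers, who listed genes with a group mean of at least 3 in at least 1 of the 4 groups. Per the submitters' processing notes CASAVA 1.8 and mm10 were used. For the aligner, counter, use of strand, scaling between libraries and depth of each library, the sources used here give nothing. No step that turned low values of short genes into whole reads was found, so no count model was used and counting error is unknown.

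On log2(RPKM + 1), group differences were fitted with limma 3.58.1 in R 4.3.3 (trend and robust prior, a mean per group over 13 libraries). Tests were two-sided, with Benjamini-Hochberg adjustment over the 12880 genes. The filter of 1 RPKM in at least 3 libraries removed none. Python 3.11.15 with SciPy 1.17.1 gave permutation tests. The fit was tested on simulated data with independent noise and no library sets, so that check does not cover the sets. Coordinates are from GENCODE mouse release 21 (GRCm38, the assembly of mm10), which held 12715 of the identifiers.

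Members and lists were chosen with earlier results of these data known. Besides the members and Sox9, named genes were called list genes (at most the 3 largest per direction, list and comparison), fixed partners of the members, and the genes most like Cdh22 (5) and each other member (2). Predicted genes were left out of the last, and 1 red-cell marker is not reported here. Alternatives covered the pseudocount (0.1 or 3), a filter of 5 RPKM, quantile normalization, median centring, a plain prior, the compared groups alone, library set, sex or replicate number as a term, each library left out and, added after seeing the data, the E11.5 set of 3 left out. Where 1 library was left in an arm, its spread was assumed to be that of the other groups.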

Additional observations from a re-analysis of the deposited data

How the results depend on the processing

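Values have no known depth, and 3 or 4 libraries a group limit the precision. Of 122 recomputed counts 91 stayed within 1.5 times, and of 483 recomputed member differences 413 kept their direction and side of the threshold or, where no test was made, moved by less than the spread between replicates; the cause of the others was not tested. In E11.5 Sox9null against control, members called went from 0 to 1 (Cdh22) with pseudocount 3, with median centring, without trend and robust prior, and with a library set term. List genes went from 0 to 1 (Fbln2) with a library set term and without the E11.5 set of 3.

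With stage in controls, members called went from 1 to 0 with pseudocount 0.1 and median centring, to 3 with a library set term and without the set of 3, to 2 with sex as a term, and to 0 to 2 with 1 library left out. List genes went from 25 to 41 with a library set term and 38 without the set of 3, and to 16 to 23 with 1 library left out, 16 without E11.5 control 1 and also without E12.5 control 3. With stage in mutants, members called went from 0 to 1 with quantile normalization, to 2 with the library set or sex as a term or without the set of 3, and to 0 to 1 with 1 library left out (1, Fn1, without Sox9null 3). List genes went from 24 to 10 in the compared groups alone, to 40 with a library set term and 37 without the set of 3, and to 6 to 22 with 1 library left out, 8 without Sox9cKO 1 and 6 without Sox9cKO 2. Median centring moved the median of all genes by -0.101 in controls, and the split of list genes was then 14 higher of 27 in controls and 11 of 21 in mutants, against 18 of 25 and 18 of 24. Under quantile normalization Cdh11 was called with stage, at 0.30 in controls (limma adjusted p = 0.00769) and 0.25 in mutants (0.0158).

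Differences near 0 changed sign. In E11.5 Sox9null against control, those with 1 library left out ran from -0.167 to 0.121 for Ncam1, -0.089 to 0.270 for Fn1, -0.719 to 0.224 for Tnc and -0.057 to 0.188 for Itga5. With the library set as a term Fn1 was -0.059 and Itga5 -0.036, and without the set of 3 Cdh2 was -0.049, Fn1 -0.082 and Itga5 -0.035. With stage in controls, leaving out 1 library gave -0.055 to 0.053 for Cdh2, -0.00084 to 0.048 for Cdh11 and -0.222 to 0.023 for Itga5. Cdh2 was 0.091 with a library set term, 0.094 with sex as a term and 0.053 without the set of 3, Itga5 was 0.023 in the first and last of these, and Cdh11 was -0.071 with median centring. With stage in mutants, Cdh2 was -0.143 to 0.0087 with 1 library left out, 0.097 with a library set term and 0.135 without the set of 3, where Cdh11 was -0.0026. Itga5 was 0.040 in both of the latter. Some differences without a test also changed sign. In Sox9cKO against control, Cdh2 went from 0.032 to -0.078 with sex as a term and -0.019 without control 1, Ncam1 to 0.025 without Sox9cKO 3, and Fn1 and Itga5 to 0.012 and 0.023 without control 3. With stage in mutants Cdh22 went to 0.083 without Sox9cKO 3.

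Replicate numbers did not pair the libraries: deviations of same-numbered libraries had correlations of -0.435, 0.635 and 0.441 at E11.5 and 0.169, 0.0266 and -0.117 at E12.5. With the replicate block Cdh22 was at 0.69 at E11.5 (adjusted p = 0.348) and Ncam1 at 0.026, the members called stayed at 0, 1 and 0, and list genes called were 0 and 0 by genotype and 23 and 17 by stage.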
